A study of Homo sapiens with 3 samples.

Results

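Writers, erasers and repressors of chromatin were followed in the RNA of HEK293T cells, an established line of human embryonic kidney origin with an SV40 large T antigen gene. The set held 53 genes of the 61193 genes with a listed transcript, and it was given as a list of symbols, with no threshold on a measured value. All 53 were found by joining the transcript identifiers to GENCODE symbols, and counts and TPM were summed per gene. The series belonged to a study that mapped i-motifs, four-stranded structures of cytosine-rich DNA, and it held 3 biological replicates of untreated cells in 1 condition. The cells were collected a day after seeding, libraries of RNA 3′ ends were prepared with the QuantSeq kit, and the labels give the molecule as genomic DNA although their protocol describes RNA extraction. There was no second group, so no difference between conditions was tested and no p-value is given. In bulk RNA, fewer cells with a transcript and less of it per cell cannot be told apart.

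Polycomb repressive complex 2 (PRC2) methylates lysine 27 of histone H3 through EZH1 or EZH2, which need EED and SUZ12 as partners, and PRC1 binds that mark through CBX proteins and ubiquitinates histone H2A through RING1 or RNF2. The KMT2 and SETD1 enzymes methylate lysine 4 of histone H3 at promoters and enhancers, other methyltransferases act on lysines 9, 36 and 79, and the KDM enzymes remove methyl groups. DNMT enzymes place methyl groups on cytosine in DNA, TET enzymes oxidise them, and MBD proteins and class I histone deacetylases (HDACs) act in repressive complexes.

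The libraries held 6262175 to 8521624 counts on transcripts, of which the 53 genes took 0.391% to 0.510%. A count of 0 allows up to 3 counts, which equalled 0.352 to 0.479 CPM (counts per 1000000). This limit covers counting error only, since no molecular identifiers tell apart the molecules behind the reads. Mitochondrial genes took 25.8% of the counts of replicate 3, compared with 9.59% in replicate 1 and 5.70% in replicate 2. Of 7 genes known from HEK293 cells, 3 had a mean of at least 1 TPM, with LIN28B at 40.8 TPM and PAX2 at 8.96 TPM, while KRT18, NEFL and NEFM were at 0 counts. Of 7 genes of other cell types, PTPRC, ALB, INS and HBB were at 0 counts and COL1A1 was at 24.8 TPM, above PAX2.

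TPM is the count scaled for transcript length, with a sum of 1000000 in each library. A mean of at least 1 TPM was reached by 36 of the 53 genes (67.9%), whereas it was reached by 21.7% of all genes and 38.2% of the protein-coding genes. The high category began at the upper quartile of the expressed genes (24.1 TPM) and held 18 of the 53 genes (34%; protein-coding genes 12.5%). Medium expression held 16 (30.2%; protein-coding genes 18.8%). The low category, at or below the first quartile (2.40 TPM), held only PCGF3 and SETD2 (3.77%; protein-coding genes 6.93%), and it held 1 gene without replicate 1 and 4 without replicate 2. The median was 7.17 TPM over the 53 genes and 25.5 TPM over the 36 expressed ones, and 10.5 TPM over the expressed protein-coding genes. Of the 17 genes below 1 TPM, 12 had at most 3 counts in every replicate (22.6% of the 53; protein-coding genes 50.9%), and RING1, EHMT2, SUV39H1, SUV39H2 and DNMT3B had none (9.43%; protein-coding genes 36.5%). Genes above and below 1 TPM occurred together in 7 of the 10 roles, and the HP1 genes, the demethylases and the lysine 36 and 79 methyltransferases had none below it.

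**Figure D1:**
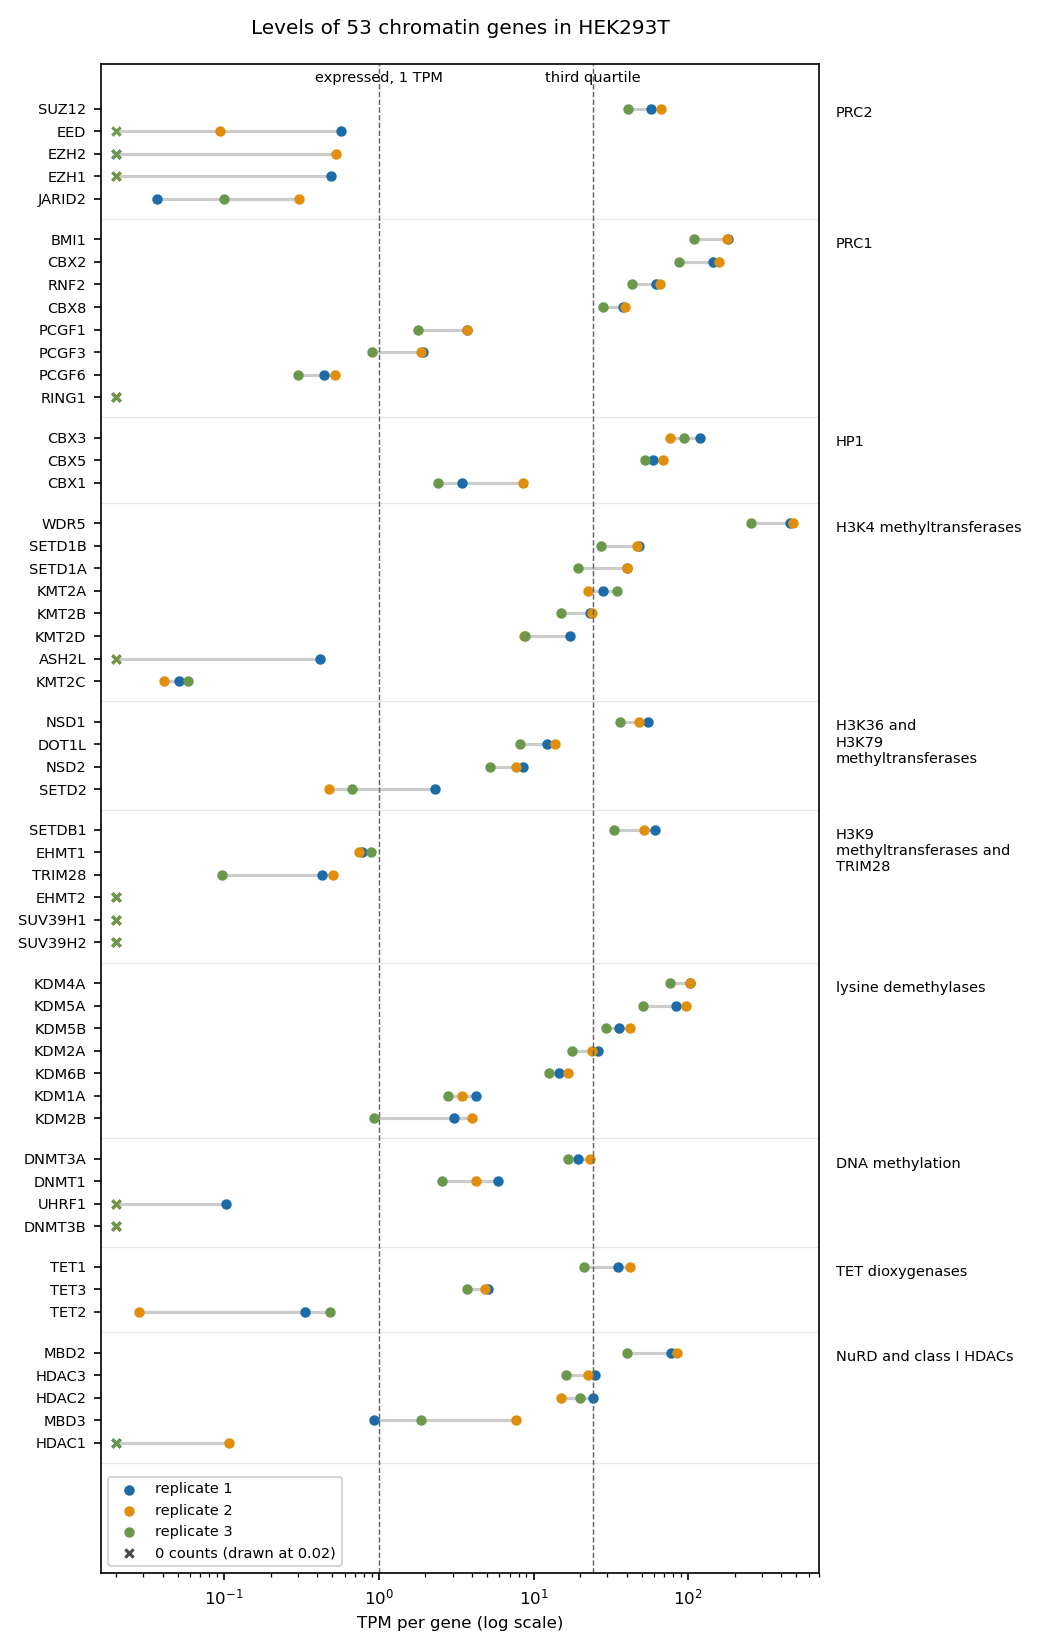
TPM per gene on a log axis for the 53 genes, grouped by role, with a point for each of 3 replicates and a cross, drawn at 0.02, for a replicate with 0 counts. Dashed lines mark 1 TPM and the upper quartile of the expressed genes, 24.1 TPM. WDR5 lies at 256 TPM or more in every replicate, above every other gene, and the PRC2 genes other than SUZ12 lie below 1 TPM.

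The 5 PRC2 genes were split between SUZ12 and the rest. SUZ12 (ENSG00000178691, GRCh38 chromosome 17 from 31937007 to 32001038, plus strand) had 1168, 1122 and 1207 counts in replicates 1 to 3, equal to 57.6, 66.5 and 41.0 TPM (55.1 ± 12.9, SD, n = 3). The enzyme EZH2 (ENSG00000106462, chromosome 7 from 148807257 to 148884321, minus strand) had 0, 3 and 0 counts, or 0, 0.525 and 0 TPM. Its 3 counts lay on a transcript annotated for nonsense-mediated decay. The other enzyme, EZH1, had 2, 0 and 0 counts, equal to 0.492, 0 and 0 TPM. EED, which binds the methylated lysine, had 3, 1 and 0 counts, equal to 0.572, 0.0943 and 0 TPM. JARID2, an accessory subunit, had 1, 7 and 4 counts, equal to 0.0367, 0.304 and 0.0999 TPM. In every replicate the counts of SUZ12 exceeded those of the other 4 genes together by more than 100-fold.

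The ends at which these genes are read differ in the annotation. The reads came from the 3′ end of each RNA and were counted per transcript. The last 30 bases of each gene's canonical transcript are therefore printed here, with the number of listed transcripts that hold all of them. The printed bases run 5′ to 3′ on the strand of the gene, with the poly(A) signal AATAAA or ATTAAA in capitals where it is present.
SUZ12, chr17:32001009-32001038, plus strand: tgtacataaagttcaataatataaaagctg
EZH2, chr7:148807383-148807412, minus strand: aactttgAATAAAgaatacttgaacttgtc
EZH1, chr17:42700275-42700304, minus strand: tgtgacctcttAATAAAgtgttagaatcca
EED, chr11:86278781-86278810, plus strand: aaagtAATAAAattatgccttatcttttta
JARID2, chr6:15522013-15522042, plus strand: gttttttggacatttgtctgtcttgtggaa
All printed bases of SUZ12 and of JARID2 are held by 1 listed transcript each, which leaves out transcripts that cover only part of them. Of the last 100 exonic bases, 100% in SUZ12 and 2% in JARID2 lay in a single listed transcript. All printed bases of EZH2 and of EZH1 are held by 2 listed transcripts and all of EED by 3. Over the last 300 exonic bases, SUZ12 had 100% in a single listed transcript on its strand, JARID2 had 0.667%, and EZH2, EZH1 and EED had 0%. How reads on sequence shared by several transcripts were counted or discarded is not given in the sources used here. The part that shared ends play in the low counts was not tested for any single gene, and counts near 0 are given here as counts on listed transcripts, not as absence of the RNA.

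Among the 8 PRC1 genes, 4 were high in every replicate. BMI1, a RING finger partner of the ubiquitin ligases, led them with 2908, 2400 and 2582 counts, equal to 181, 177 and 109 TPM (156 ± 40.2, SD, n = 3). CBX2, which reads methylated lysine 27, followed with 131 ± 37.8 TPM, and BMI1 was above it in 3 of 3 replicates. The ligase RNF2 had 57.0 ± 11.96 TPM and CBX8, another reader, 35.0 ± 5.89 TPM. RING1, the paralog of RNF2, had 0 counts in every replicate, with both of its listed transcripts sharing their end. The remaining partners of the ligases were far lower, with 3.06 ± 1.10 TPM for PCGF1 from 10 to 14 counts, 1.57 ± 0.586 TPM for PCGF3 from 34 to 50 counts, and 1 count in each replicate for PCGF6. PCGF3 fell below 1 TPM in replicate 3 alone. The counts of PCGF1 and PCGF6 lay mostly or wholly on retained-intron transcripts.

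The 3 HP1 genes, whose proteins bind methylated lysine 9, were all expressed. CBX3 had 641, 379 and 730 counts, equal to 119, 76.5 and 93.3 TPM (96.4 ± 21.6, SD, n = 3). CBX5 had 2318, 2291 and 2810 counts, equal to 59.4, 68.3 and 52.2 TPM (60.0 ± 8.08, SD, n = 3). CBX1 had 37, 77 and 39 counts, equal to 3.45, 8.54 and 2.42 TPM (4.80 ± 3.28, SD, n = 3), and 2.93 TPM without replicate 2. The order of CBX3 and CBX5 depended on the scale, since CBX3 was higher in TPM in 3 of 3 replicates and lower in counts in 3 of 3. The counts of CBX5 lay to 89.2% on a transcript of 11546 bases, and those of CBX3 were divided over 6 transcripts, of which the canonical one took 52.2% and has 2061 bases. CBX1 differed from both, with the lowest TPM and the fewest counts of the 3 in every replicate, and the replicates of CBX1 did not overlap those of either gene. Near-identical copies exist for these genes, and the reads of a copy cannot be separated from those of its parent with certainty. The pseudogenes with a mean of at least 1 TPM were CBX1P1 (8.52 TPM), CBX1P2 (4.54 TPM), CBX1P3 (2.76 TPM), CBX1P4 (1.27 TPM), CBX3P9 (14.1 TPM), CBX3P1 (2.21 TPM) and CBX5P1 (2.19 TPM). These were 7 of the 33 pseudogenes named after any of the 53 genes, beside 21.7% of all genes at that level. All 7 had HP1 parents, and the other pseudogenes of HP1 parents were below 1 TPM. Of the 33, 20 were at 0 counts. CBX1P1, at 15 to 18 counts of a short copy, exceeded the 4.80 TPM of CBX1 itself.

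The lysine 4 methyltransferases held the highest level of the set. WDR5 (ENSG00000196363, chromosome 9 from 134135365 to 134159968, plus strand), a scaffold shared by all complexes of this family, had 6492, 5703 and 5373 counts, equal to 454, 472 and 256 TPM (394 ± 120, SD, n = 3). Its level was 2.51 ± 0.166 times that of BMI1, next in order, and higher in 3 of 3 replicates. ASH2L, its partner in the same core, had 4, 0 and 0 counts and a shared end. Among the enzymes, SETD1B had 40.7 ± 11.5 TPM, SETD1A 33.3 ± 12.1 TPM, KMT2A 28.5 ± 6.16 TPM, KMT2B 20.6 ± 4.95 TPM and KMT2D 11.6 ± 4.91 TPM. SETD1B exceeded SETD1A in 3 of 3 replicates, whereas KMT2A exceeded KMT2B in TPM in 2 of 3 and in counts in 1 of 3. The enzyme with the lowest level, KMT2C, had 3, 2 and 5 counts, equal to 0.0514, 0.0406 and 0.0583 TPM, all on a retained-intron transcript of 12854 bases. The end of KMT2D overlaps the antisense gene DDN-AS1 over 86.0% of its last 300 bases, and the ends of KMT2B and SETD1A overlap antisense genes over 26.0% and 11.7%. The strand setting of the counting is not given in the sources used here, and those antisense genes themselves had 0 to 32 counts in a replicate.

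Of the lysine 36 and 79 methyltransferases, NSD1 was highest with 269, 189 and 262 counts, equal to 54.8, 48.1 and 36.2 TPM (46.4 ± 9.41, SD, n = 3). DOT1L, the enzyme of lysine 79, had 11.4 ± 2.91 TPM and NSD2 7.17 ± 1.72 TPM. SETD2, which places trimethylation on lysine 36, was lowest with 8, 5 and 4 counts, equal to 2.29, 0.478 and 0.666 TPM. It reached 1 TPM in replicate 1 alone and its mean was 0.572 TPM without that replicate, against 1.15 TPM with it. NSD1 had fewer counts than DOT1L in every replicate although its TPM was higher in 3 of 3, and 56.7% of its counts lay on a retained-intron transcript of 1414 bases. NSD1 exceeded NSD2 by 6.51 ± 0.352 times in TPM and by 2.52 to 2.77 times in counts. Each ratio varied little between replicates.

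The lysine 9 methyltransferases and their partner TRIM28, which recruits SETDB1 to zinc finger proteins, were near 0 apart from a single gene. SETDB1 had 352, 263 and 304 counts, equal to 61.2, 51.5 and 33.2 TPM (48.7 ± 14.2, SD, n = 3). EHMT1 had 8 to 13 counts and 0.805 ± 0.0767 TPM, and its partner EHMT2 had 0 counts. SUV39H1 and SUV39H2, the enzymes of heterochromatin, were at 0 counts in every replicate, and TRIM28 had 3, 3 and 1 counts. None of the 6 had an own end over the last 300 exonic bases. Most of the SETDB1 counts, 88.5%, lay on SETDB1-202, a coding transcript of 1478 bases with an end of its own, and the canonical transcript had 0. The end of the canonical SETDB1 transcript overlaps the antisense gene CERS2 over 42.0% of its last 300 bases. All of the last 30 bases are held by 1 listed transcript for SETDB1, EHMT1 and SUV39H1. Of the last 100 exonic bases, 2% in SETDB1, 13% in EHMT1 and 6% in SUV39H1 lay in a single listed transcript. EHMT1 had 30 counts in all and SUV39H1 had 0.
SUV39H1, chrX:48708987-48709016, plus strand: atcAATAAAatgaactgtcgactgaacaaa
SUV39H2, chr10:14904286-14904315, plus strand: cacagtaagactgtctccaaaaaaaaaaaa
EHMT2, chr6:31879759-31879788, minus strand: ttctcaataaatgttgggtttggtAATAAA
TRIM28, chr19:58550686-58550715, plus strand: tctgtggatttAATAAAaacttcaccagtt
EHMT2 holds AATAAA at 2 places, of which the later is in capitals. All of its printed bases are held by 8 listed transcripts, the most of any gene of the set by this count.

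All 7 lysine demethylases were expressed. KDM4A, which acts on lysines 9 and 36, had 2087, 1757 and 2267 counts, equal to 103, 103 and 76.2 TPM (93.9 ± 15.3, SD, n = 3). The lysine 4 demethylase KDM5A had 77.0 ± 23.7 TPM and 3390 to 3910 counts, the second highest counts of the set after WDR5. Its paralog KDM5B had 35.6 ± 6.38 TPM from 101 to 130 counts, so that KDM5A was 2.13 ± 0.348 times higher in TPM and 26.1 to 37.7 times higher in counts. Of the KDM5B counts, 80.3% lay on a retained-intron transcript of 535 bases and 3.28% on the canonical one. KDM2A, a lysine 36 demethylase that binds unmethylated CpG, had 22.5 ± 4.31 TPM, and KDM6B, which removes methyl groups from lysine 27, had 14.7 ± 2.06 TPM. KDM1A, the amine oxidase of lysine 4, had 3.49 ± 0.713 TPM, with 98.5% of its counts on a retained-intron transcript. KDM2B, the subunit that brings a variant PRC1 to CpG islands, was lowest with 21, 19 and 13 counts, equal to 3.04, 3.99 and 0.928 TPM. The replicates of KDM4A and KDM5A overlapped in TPM, while those of KDM2A and KDM2B did not.

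For DNA methylation, the de novo enzyme DNMT3A carried nearly all of the counts. DNMT3A (ENSG00000119772, chromosome 2 from 25227855 to 25342590, minus strand) had 689, 782 and 1029 counts, equal to 19.3, 23.3 and 16.8 TPM (19.8 ± 3.29, SD, n = 3). DNMT3B, the other de novo enzyme, had 0 counts in every replicate. The maintenance enzyme DNMT1 had 16, 11 and 10 counts, equal to 5.88, 4.26 and 2.55 TPM (4.23 ± 1.66, SD, n = 3). UHRF1, which guides DNMT1 to hemimethylated sites, had 2, 0 and 0 counts. Between DNMT3A and DNMT1 the ratio was 5.11 ± 1.68 in TPM and 43.1 to 103 in counts. The DNMT1 counts lay on short transcripts, most often retained introns, with 94.6% of them on transcripts under 1000 bases by the deposited lengths and 0 on the canonical one. The transcript with most of them, DNMT1-219 with 43.2%, was deposited at 672 bases and has 4395 bases in GENCODE v44. All 4 genes had shared ends, of which those of the 3 enzymes are shown.
DNMT3A, chr2:25227874-25227903, minus strand: aaatggactgtttttgtgcaaaaagaaaaa
DNMT3B, chr20:32809327-32809356, plus strand: ttatgtttaATTAAAatcagtatttgtcta
DNMT1, chr19:10133346-10133375, minus strand: tttcttcaAATAAAtctctcctataaacca
All printed bases of DNMT3A are held by 2 listed transcripts, those of DNMT3B by 4 and those of DNMT1 by 5. For DNMT3A the deposited length of the canonical transcript was 4279 bases and that in GENCODE v44 9421 bases, and 97.8% of its counts lay on DNMT3A-201, listed at 9501 bases in both. How far its end was shared in the annotation used for counting is thus not known.

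The TET dioxygenases were in the order TET1, TET3 and TET2 in every replicate on the TPM scale. TET1 had 1526, 1551 and 1354 counts, equal to 35.0, 42.1 and 21.1 TPM (32.7 ± 10.7, SD, n = 3). It was the only gene of the 53 with a single listed transcript, so none of its sequence was shared within the gene. TET3 had 4.54 ± 0.724 TPM from 211 to 247 counts on a transcript of 11388 bases. TET2 was lowest with 14, 1 and 7 counts, equal to 0.334, 0.0282 and 0.481 TPM. TET1 exceeded TET3 by 7.10 ± 1.52 times in TPM, and the replicates of the 3 genes did not overlap.

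In the group of NuRD proteins and class I deacetylases, MBD2, which binds methylated CpG, had 1767, 1632 and 1363 counts, equal to 76.9, 84.1 and 40.4 TPM (67.1 ± 23.4, SD, n = 3). MBD3, its paralog in the NuRD complex, had 4, 22 and 11 counts and 3.52 ± 3.70 TPM, or 1.40 TPM without replicate 2. The deacetylases HDAC3 and HDAC2 overlapped in TPM, at 21.2 ± 4.47 and 19.7 ± 4.67, with HDAC3 above HDAC2 in 2 of 3 replicates. In counts HDAC2 was higher in 3 of 3, with 292 to 458 against 72 to 95. HDAC1 was lowest with 0, 1 and 0 counts, equal to 0, 0.108 and 0 TPM. The ends of the paralogs HDAC1 and HDAC2 are shown.
HDAC1, chr1:32333597-32333626, plus strand: ctctttgtAATAAAatggtacatttctata
HDAC2, chr6:113933028-113933057, minus strand: gacaaagctcaAATAAAggaaaaagaccca
All printed bases of HDAC2 are held by 1 listed transcript of 17, and those of HDAC1 by 2 of 10. The signal AATAAA is present in both. The canonical transcript of HDAC3 also has a shared end, in 2 listed transcripts of 16, and that transcript had 0 counts. The 72 to 95 counts of HDAC3 all lay on retained-intron transcripts. Over the 3 replicates, 87.7% of them lay on HDAC3-211, a transcript of 777 bases with an end of its own.

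Across the set, the end of the canonical transcript moved with the counts. An own end, with at least 50% of the last 300 exonic bases in a single listed transcript, was found in 19 of the 53 genes (35.8%; protein-coding genes 42.4%). All 19 reached 1 TPM, against 53.2% of the protein-coding genes with an own end. They had 335 to 17568 counts over the 3 replicates, with a median of 933 counts per replicate and 55.1 TPM. These are counts of all transcripts of a gene. KDM5B, with the fewest of the 19, had 3.28% of them on the canonical transcript whose end was measured. Of the 34 genes with shared ends, 17 reached 1 TPM (50%; protein-coding genes with shared ends 27.2%), with 0 to 4740 counts, a median of 8.67 counts per replicate and 0.975 TPM. The 12 genes with at most 3 counts in every replicate all had shared ends, among which the share of protein-coding genes at that level was 61.2%, compared with 36.9% for own ends. Among the genes with a shared canonical end, KMT2A, KMT2B, SETD1B, NSD1, SETDB1, KDM6B and DNMT3A had more than 100 counts per replicate. The canonical transcript held 92.8% of the counts in KMT2A and 99.9% in KMT2B. In SETD1B, NSD1, SETDB1, KDM6B and DNMT3A it held 0, so those counts lay on other transcripts than the one whose end was measured. Lengths in the deposited tables differed from GENCODE v44 for 16 of 52 listed canonical transcripts. When only transcripts of matching length were used, at the end of the longest transcript, 27 genes had an own end. The median was 707 counts per replicate in these 27 genes and 4.83 in the other 26. KMT2A, SETD1B, NSD1, KDM6B and DNMT3A were among the 27, while KMT2B and SETDB1 were not. SUV39H1, KMT2C and EHMT1, also among the 27, had 0, 10 and 30 counts in all. All of the last 30 bases were held by at most 1 listed transcript in 25 genes, with a median of 583 counts per replicate. They were held by several in 28 genes, with a median of 6.5. This count leaves out transcripts that cover only part of the 30 bases. JARID2, PCGF3, SETDB1 and KDM2B, all among the 25, had 1% to 2% of the last 100 exonic bases in a single listed transcript. AATAAA was present in the last 30 bases of 30 genes (56.6%; protein-coding genes 56.8%), and AATAAA or ATTAAA in 35 (66.0%; protein-coding genes 69.8%).

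**Figure D2:**
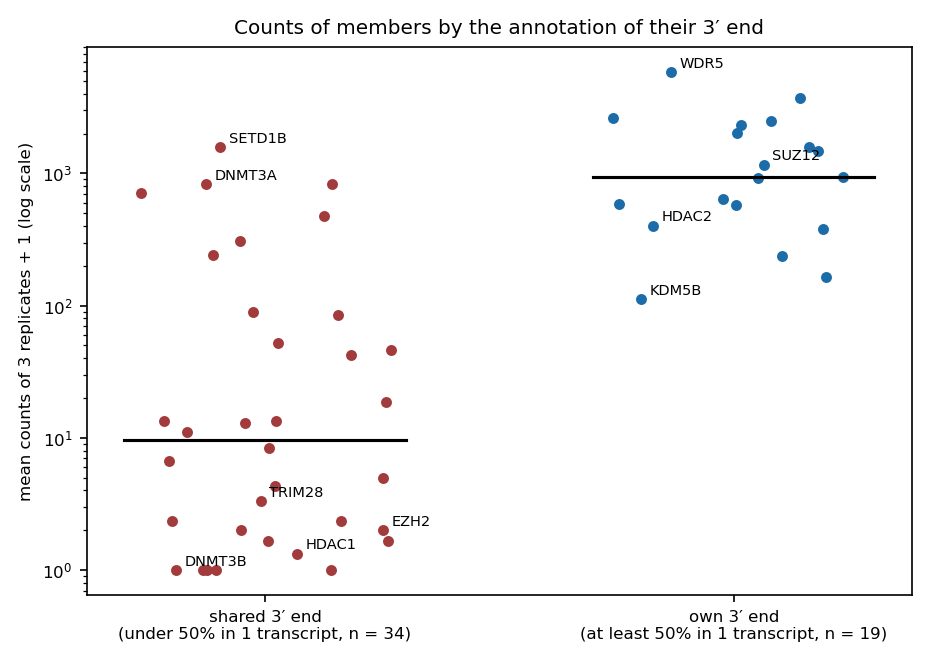
Mean counts of the 3 replicates plus 1, on a log axis, for the 34 genes with shared 3′ ends and the 19 with own 3′ ends, with black bars at the medians of 8.67 and 933 counts (drawn plus 1). Points are spread sideways for legibility only. Counts are of all transcripts of a gene, while the end is that of the canonical transcript. No gene with an own end lies below 112 counts, while the shared group reaches from 0 to 1580. The lowest gene with an own end, KDM5B, had 2, 4 and 5 counts on its canonical transcript.

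Counts were also uneven within genes. In the 40 genes with at least 10 counts in total, a median of 97.4% of the counts lay on a single transcript, and in 27 of them this share was above 90%. The leading transcript was the canonical one in 22 genes and another in 18, and it was a retained intron in 9. The canonical transcript had 0 counts in 13 of the 40. Of the 584 listed transcripts of the set, 122 had any count. Summed over the set, canonical transcripts held 86.1% of the counts, other coding transcripts 10.6%, retained introns 2.04% and transcripts marked for nonsense-mediated decay 0.0476%. Retained introns were thus a small share of all counts although they led in 9 genes.

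**Figure D3:**
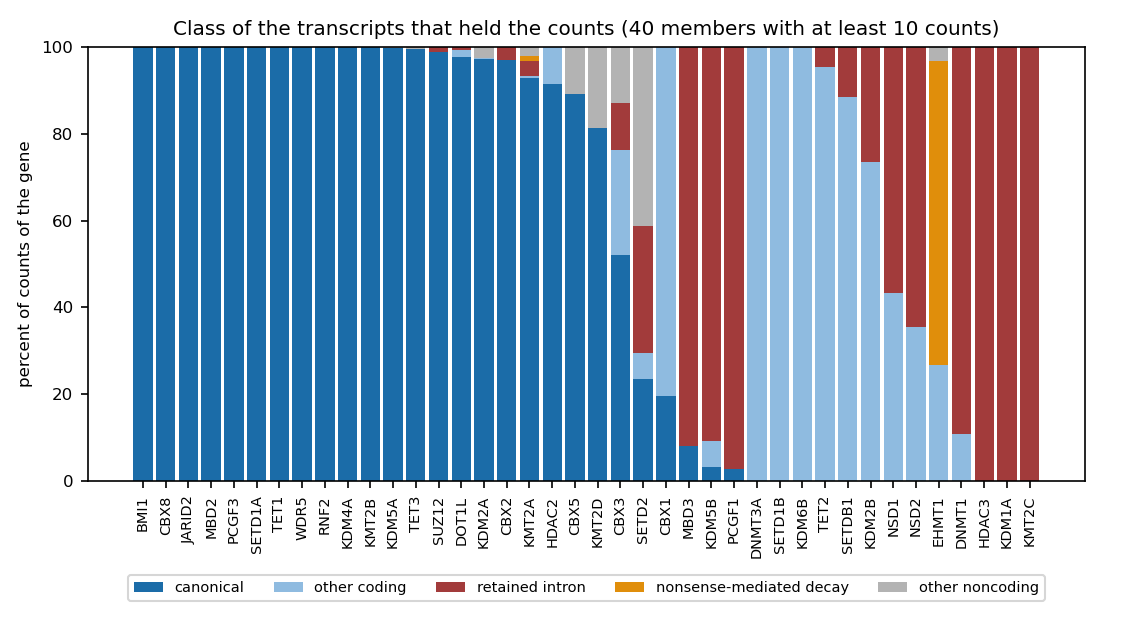
Percent of the counts of each gene, over 3 replicates, that lay on the canonical transcript, other coding transcripts, retained introns, transcripts marked for nonsense-mediated decay and other noncoding transcripts, for the 40 genes with at least 10 counts. Genes are ordered by the canonical share. Retained introns hold most of the counts of PCGF1, KDM5B, MBD3, HDAC3, KDM1A, KMT2C, DNMT1, NSD2 and NSD1.

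Because each read marks a 3′ end, division by length gives a read on a short transcript more TPM than a read on a long one. In 11 of the 40 genes, transcripts under 1000 bases, a limit chosen after the data were seen, made up more than 50% of the TPM (27.5%; protein-coding genes with at least 10 counts 22.5%). In CBX3, HDAC2, KMT2A, KMT2D and NSD1 they did so with less than 50% of the counts (12.5%; protein-coding genes 6.47%). KMT2A is the clearest case, since KMT2A-219, listed at 158 bases, held 2.12% of its counts and gave 17.7 ± 6.61 of its 28.5 TPM. The canonical KMT2A transcript of 16600 bases held 92.8% of the counts and gave 8.06 ± 0.957 TPM. In KMT2D, a transcript of 615 bases with 44, 16 and 32 counts gave 10.1 of its 11.6 TPM. In HDAC2, a transcript of 549 bases held 8.46% of the counts and gave 11.9 of its 19.7 TPM. Without division by length, 36 genes again reached 1 CPM, but 16 genes changed category. NSD1, SETDB1 and KDM5B went from high to medium, while KMT2B, DOT1L, KDM2A, KDM6B, DNMT3A and HDAC2 went from medium to high. DNMT1, PCGF1, KDM2B and MBD3 went from medium to low, PCGF3 from low to medium, SETD2 from low to below 1 and EHMT1 from below 1 to low.

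**Figure D4:**
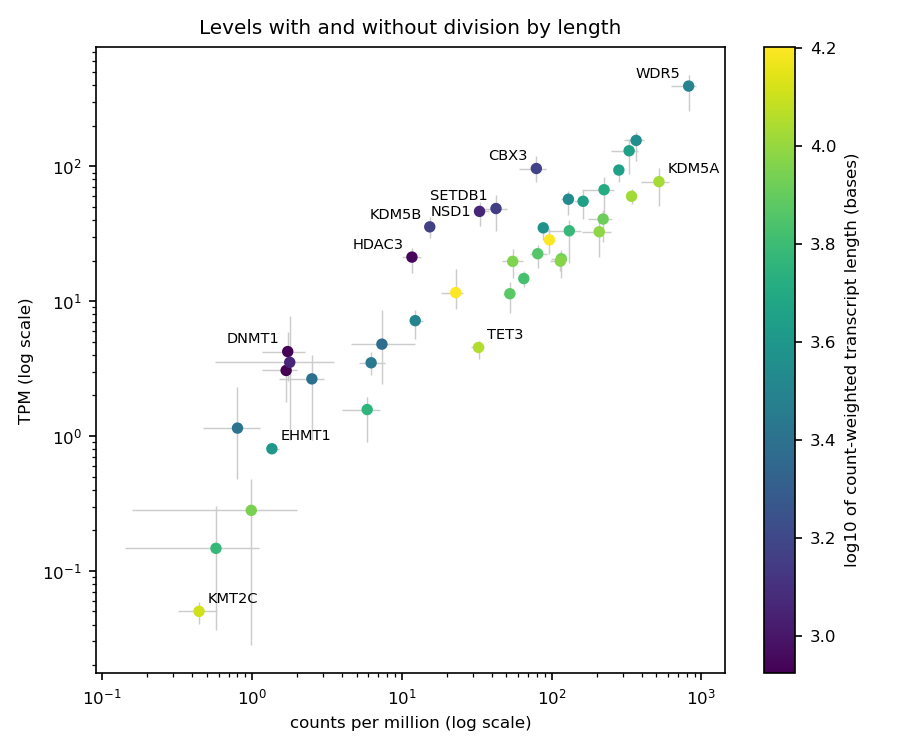
TPM against CPM, both on log axes, for the 40 genes with at least 10 counts, as means of 3 replicates with lines from the lowest to the highest replicate and colour for the mean transcript length weighted by counts. Genes counted on short transcripts, such as HDAC3 (11.7 CPM, 21.2 TPM) and KDM5B (15.4 CPM, 35.6 TPM), lie above TET3 (32.6 CPM, 4.54 TPM), which had more counts on a longer transcript.

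The replicates placed most genes alike. The category was identical across replicates for 45 of the 53 (84.9%; protein-coding genes 85.2%), and in 28 of the 36 expressed ones (77.8%; expressed protein-coding genes 71.2%). The genes that differed were PCGF1, PCGF3, KMT2A, SETD1A, SETD2, KDM2A, KDM2B and MBD3. The median SD of log2(TPM + 1) over the replicates was 0.36 in the expressed genes of the set and 0.36 in the expressed protein-coding genes. Replicate 3 stood apart on the TPM scale. Among 28 genes that had 50 counts or more in each library, 26 had a value in replicate 3 under the average of the other replicates (92.9%; nuclear genes with such counts 87.5%), with a median log2 ratio of -0.56 (nuclear genes -0.54). When mitochondrial genes were left out of the total, 16 of the 28 were lower (57.1%; nuclear genes 50.5%) and the median log2 ratio was -0.04. The median coefficient of variation of these 28 genes then went from 23.6% to 10.2%, compared with 3.61% for counting noise alone. RNF2 had the lowest coefficient, 1.65% around 78.6 TPM, below the 3.27% that counting noise alone gives this gene, and SUZ12 had 3.53%, with 2.93% from counting noise. KMT2A had 44.3%, the highest, and a log2 ratio of 0.99 in replicate 3, although its CPM values were 93.9, 95.5 and 101. SETD1A had the lowest ratio on either scale, -1.06 in TPM and -0.53 without mitochondrial genes.

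**Figure D5:**
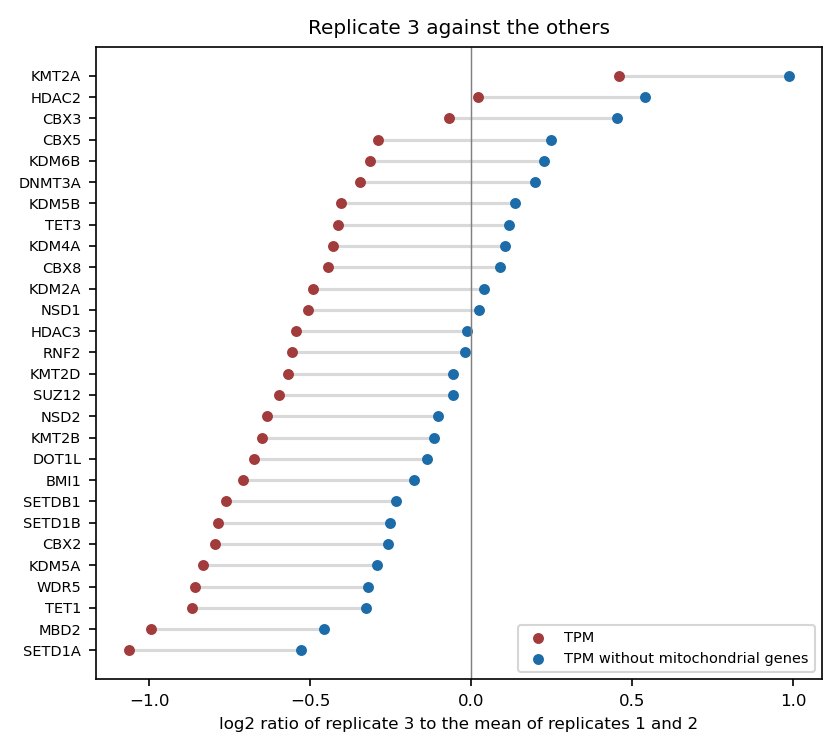
Log2 ratio of replicate 3 to the mean of replicates 1 and 2 for the 28 genes that had 50 counts or more in each library, from TPM (red) and from TPM after leaving out mitochondrial genes (blue). The red points center on -0.56 and the blue points on -0.04, with SETD1A at the low end and KMT2A at the high end of both.

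Of 72 other genes of the same pathways, 44 had a mean of at least 1 TPM (61.1%; protein-coding genes 38.2%). Of the 72, 19 were high (protein-coding genes 12.5%) and 18 had no more than 3 counts in every replicate (protein-coding genes 50.9%). Their median was 4.08 TPM. The highest was DPY30, a small partner of WDR5 and ASH2L, with 1944, 1508 and 1926 counts and 538 TPM, and PHF1, PCGF2, PHC1, RBBP5, CXXC1, KDM1B, KDM6A, DNMT3L and MBD4 were at 0 counts. By the same measure of ends, 19 of 23 with an own end and 25 of 49 with a shared end were expressed. In the core of the lysine 4 complexes, WDR5 and DPY30 were thus above 250 TPM in every replicate while ASH2L and RBBP5 had at most 4 counts in a replicate. The ends of WDR5 and DPY30 also differed from those of ASH2L and RBBP5. DPY30 was above WDR5 in TPM and below it in counts in every replicate. Of the last 300 exonic bases, 100% in WDR5, 65.7% in DPY30 and 0% in ASH2L and RBBP5 lay in a single listed transcript. The part that the ends play in this contrast was not tested.

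The study mapped i-motifs, so the promoters were searched for the cytosine pattern of such structures. The pattern was 4 runs of at least 3 C with 0 to 7 bases between runs on either strand, and its complement is the guanine pattern used for G-quadruplexes, so a match to either is a match to both. RefSeq windows on GRCh38.p14, from 250 bases before to 50 bases after a start, were at hand for 47 of the 53 genes. The genes not matched were CBX2, CBX8, SETD1B, DOT1L, TRIM28 and ASH2L. The pattern was in 28 of the 47 genes (59.6%), compared with 38.9% of 15334 protein-coding genes. Counted by window, 51.9% of 77 windows of the set held it and 26.8% of all 35116. DNMT3A had the most matches with 8, followed by KDM2B and NSD1 with 6 and KMT2C with 5. With 0 bases between runs, a long stretch of C can count as more than 1 run. Some matches, also of DNMT3A, KDM2B and NSD1, therefore hold only 3 separate stretches of C. Matches were summed over all windows of a gene, and genes differed in their number of windows. Matches from genes of contrasting levels are printed on the strand that holds the cytosines, with runs of at least 3 C in capitals and positions counted from the gene's start in that window.
WDR5, chr9:134136347-134136368, plus strand, from -74 to -53: CCCCgCCCgggaCCCCCgCCCC
BMI1, chr10:22321836-22321860, plus strand, from -120 to -96: CCCggCCCCgcgCCCCgcgccgCCC
TET1, chr10:68560212-68560237, minus strand, from -125 to -100: CCCtctcgaCCCCCtCCCCCtCCCCC
DNMT3A, chr2:25341931-25341946, plus strand, from -21 to -6: CCCtCCCtCCCggCCC
EZH2, chr7:148884441-148884459, minus strand, from -168 to -150: CCCgCCCgCCCacgagCCC
KMT2C, chr7:152436137-152436162, plus strand, from -159 to -134: CCCgcggCCCCtCCCCCgagccgCCC
The first 3 of these genes were in the high category, DNMT3A was medium, and EZH2 and KMT2C were below 1 TPM. Expressed genes were 19 of the 28 with the pattern (67.9%) and 13 of the 19 without it (68.4%). The median was 3.51 TPM with the pattern and 19.7 TPM without it, and over the genes with an own end it was 35.6 TPM for 7 genes and 60.0 TPM for 9 genes. A match is a sequence of letters, and whether any of them folded in these cells was not analysed here.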

How the data were processed

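RNA-seq libraries of 3 HEK293T replicates were analysed from the deposited tables, with 1 table per replicate. The deposited counts give reads per transcript as whole numbers and are not normalized. In the deposited TPM, each count was scaled by transcript length to 1000000 per library. The transcript length, in bases, is the other deposited column. The submitters' processing notes name Trimmomatic 0.38.0, HISAT2 2.2.1, featureCounts (listed as 2.2.1) and hg38; the annotation release, the strand setting and the treatment of reads that overlap several transcripts are not given in the sources used here.

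Identifiers without version were matched to GENCODE v44, which covered 223558 of 247541 transcripts. Counts and TPM were summed per gene. Quartiles were taken over the 13296 genes with a mean of at least 1 TPM. The 3′ ends were taken from the annotation, and 13302 transcripts had another length there than deposited. All genes of the set are named; values of every replicate are given for the highest and lowest gene of each role and for all PRC2 genes, HP1 genes and DNA methyltransferases, pseudogenes are named from 1 TPM, and other pathway genes by counts with the highest and lowest named. The genes, the lists and their roles were chosen with earlier results of these data known. With 1 group no test was run. Alternatives were other thresholds, CPM, mitochondrial genes left out, canonical transcripts only, other windows and motif rules, and each replicate left out. The scripts were tested on simulated data and ran under Python 3.11.15 with pandas 2.3.3, numpy 2.4.6 and matplotlib 3.10.9.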

Additional observations from a re-analysis of the deposited data

How the results depend on the processing

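No paired analysis was possible because the series held 1 group. Of 74 values under alternatives, 57 stayed within 1.5 times the reported count or within 1 SD of the reported value, and none reversed, since no direction was tested. Counting canonical transcripts only gave 22 expressed genes in place of 36, 7 at medium expression in place of 16, a median of 0.0305 TPM in place of 7.17 and 28 genes at no more than 3 counts in place of 12. CPM gave 5 genes at low expression in place of 2, 10 at medium expression and a median of 12.3. Leaving out mitochondrial genes gave a median of 9.87 TPM. With a mean above 0 TPM as the threshold 7 genes were low, with quartiles of protein-coding genes 4 were low, and with a threshold of 10 TPM 5 were high in place of 18. Leaving out each replicate in turn gave 1 to 4 genes at low expression, with 1 without replicate 1 and 4 without replicate 2. A limit of 0 counts left 5 genes in place of 12. Restricting the set to own ends, an alternative added after the data were seen, left 19 expressed genes, because only 19 genes remained. Requiring 5 runs of C gave 18 promoters in place of 28, and runs of at least 2 C gave 47. Counting depth limits the genes near 0, whose 12 ends were all shared over the last 300 bases but not under matched lengths, where SUV39H1 had an own end, and the part of shared ends in their counts was not tested.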
